A study of Homo sapiens with 3 samples.

Results

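The 10 protein-coding globin genes of the human alpha and beta clusters were examined in RNA libraries of cells labelled KG1, an acute myeloid leukemia (AML) line. Members were taken by gene symbol from a table of 61806 genes. 5 genes belong to the alpha cluster on chromosome 16 (HBZ, HBM, HBA2, HBA1 and HBQ1) and 5 to the beta cluster on chromosome 11 (HBE1, HBG2, HBG1, HBD and HBB).

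Hemoglobin is a tetramer that pairs alpha-type chains with beta-type chains around heme. Each cluster is read in developmental order: HBZ (zeta) and HBE1 (epsilon) are embryonic, HBG1 and HBG2 (gamma) are fetal, and HBB (beta) and HBD (delta) are adult, while HBA1 and HBA2 (alpha) serve fetal and adult life. Globin transcripts are a hallmark of erythroid cells, and leukemia lines with erythroid features are known to keep embryonic and fetal globins.

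The series asked how silencing of UCP2, a carrier of the inner mitochondrial membrane, alters RNA levels in AML cells. The control group held 1 library labelled NC, from cells given a lentiviral vector control, described in the study's methods as a scramble shRNA. The shUCP2 group, labelled UCP2 knockdown, held 2 libraries, each from cells given another lentiviral hairpin, shUCP2#2 or shUCP2#3. All cells were thus transduced and selected, and no genotype other than the line was given. The methods call the transduced cells clones in places, and it is not stated whether each library had a culture of its own. The p-values given here therefore cannot be read as covering spread between independent cultures. In the edgeR fit behind the calls below, variance was shared across genes. The spread of a single gene between these libraries thus had little weight in its p-value. The labels name total RNA as the molecule but describe a DNA extraction, and the design text numbers the hairpins #1 and #2 where the sample titles, followed here, have #2 and #3.

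The libraries summed to 16475165 to 18375090 counts. UCP2 itself had 651 counts in control, 608 in shUCP2#2 and 649 in shUCP2#3, and its log2 fold change was 0.06 (SE 0.15, edgeR adjusted p = 0.888). The target was therefore not lower in the RNA of these libraries, which are named here by their labels. The paper's own check by immunoblot and qPCR reports UCP2 protein and transcript as abolished with both hairpins in the labelled line. Of the genes that mark the labelled line, HLA-DRA, CD38 and MPO had 0 counts in every library and CD34 had 0, 10 and 0, whereas 18 of 21 erythroid markers other than globins exceeded 10 CPM (counts corrected for the size of each library) in all 3. Of 12 progenitor, 9 monocyte and 7 MHC class II markers, 1, 1 and 0 did so, so the data did not bear out the markers expected of KG1. The shUCP2#2 library stood apart by fibroblast genes: COL1A2 had 2, 806 and 3 counts in control, shUCP2#2 and shUCP2#3. Because of this, the change of each tested globin gene is given for each hairpin as well as for both together.

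The cells carried an embryonic and fetal globin pattern. Levels between genes were compared as FPKM, read counts scaled to exon length and library size, which corrects for length. HBG2 was the most abundant globin, at 1601, 1098 and 1117 FPKM in control, shUCP2#2 and shUCP2#3, ranks 12, 23 and 20 among all genes. HBG1 followed in each library at 204, 141 and 138 FPKM, and HBZ, HBA2 and HBE1 came next, between 18.9 and 66.1 FPKM. HBQ1 and HBA1 lay between 3.48 and 21.9 FPKM, HBD between 1.69 and 2.13, and HBB and HBM at 0.35 FPKM or less. The 10 genes took 0.181% of all counts in control (95% exact binomial interval 0.179 to 0.183), 0.123% under shUCP2#2 (0.121 to 0.124) and 0.124% under shUCP2#3 (0.123 to 0.126). Both shUCP2 libraries lay below control, and their intervals overlapped each other. Such intervals cover counting error only.

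**Figure D1:**
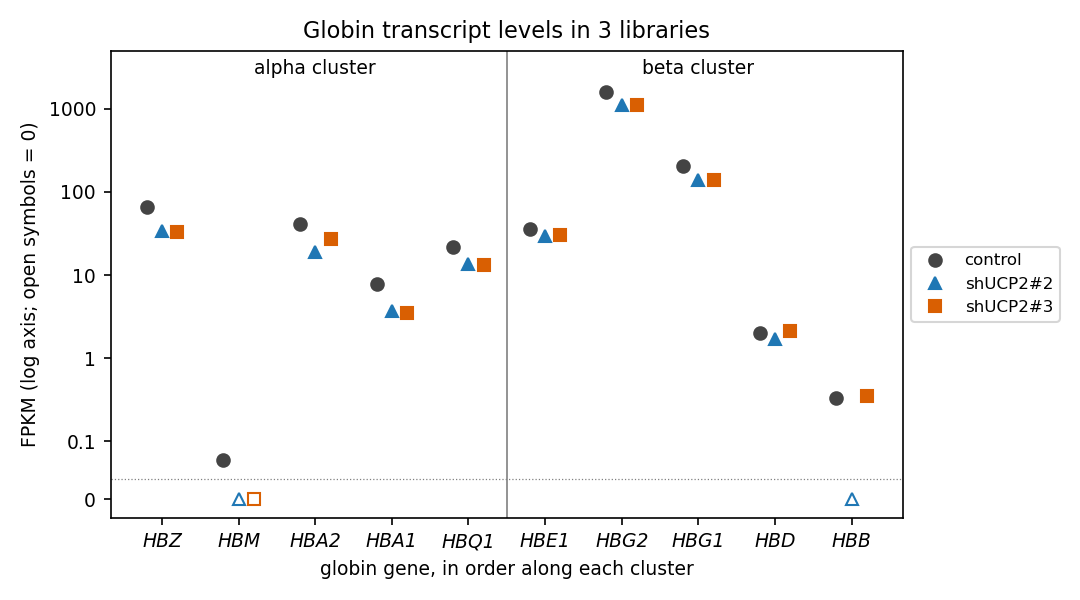
FPKM of each globin gene (log axis, with open symbols at 0) in the control, shUCP2#2 and shUCP2#3 libraries, 1 point a library. HBG2 lies at 1098 to 1601 FPKM, while HBM and HBB lie at 0.35 or less.

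The gamma genes dominate the globin counts of these libraries, so the coding bases at which their reference sequences differ are shown. Whether the cells carry these reference bases was not examined. Over the 444 bases of coding sequence, HBG1 and HBG2 differed at 2 bases (99.5% identity) in the GRCh38 reference. Counted from 1 at the A of the start codon, with the HBG2 base first, these were T227C in codon 76 and G410C in codon 137, both in coding exons on the minus strand. The capitals mark the differing base, and the first pair covers positions 197 to 257 and the second 380 to 440.
HBG2 (chr11:5254350-5254410): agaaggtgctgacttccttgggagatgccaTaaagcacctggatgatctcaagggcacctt
HBG1 (chr11:5249426-5249486): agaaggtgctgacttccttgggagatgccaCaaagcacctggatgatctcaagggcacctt
HBG2 (chr11:5253281-5253341): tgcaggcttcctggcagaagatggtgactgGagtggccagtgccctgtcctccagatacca
HBG1 (chr11:5248363-5248423): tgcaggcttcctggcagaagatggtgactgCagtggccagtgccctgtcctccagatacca
A read that covers neither base, nor a differing UTR base, cannot be given to one gamma gene. Of the 100-base windows along the HBG1 transcript, 39.0% also occurred in HBG2. The alpha pair was closer still: the 429 coding bases of HBA1 and HBA2 were identical, and 79.7% of the 100-base windows of HBA1 occurred in HBA2. For this reason each pair is reported as a sum first, and the members of a pair as uncertain. The other members could be told apart by sequence more readily. HBD and HBB differed at 32 of 444 coding bases (92.8% identity), HBE1 and HBG2 had 83.6% identity, HBA2 and HBQ1 73.0%, and HBZ and HBA2 68.5%.

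Most of the measurable globin transcripts were lower under both hairpins: HBZ fell to 0.509 of control, the summed alpha pair to 0.536 and the summed gamma pair to 0.690. Of 15232 genes tested, 6.11% were called lower and 6.25% higher in shUCP2 than in control, at an adjusted p under 0.05. Among the 10 globin genes, 8 passed the filter on low counts, 5 of them were called lower (HBZ, HBA1, HBA2, HBG1 and HBG2) and 0 higher. The other 3 tested, HBQ1, HBE1 and HBD, were not called, and HBM and HBB were too low to be tested. The 5 calls include both copies of each near-identical pair, so they are not 5 separate results. The median log2 fold change of the 8 tested members was −0.63, against 0.02 over all genes tested. Because 1 library stood for the control, its spread was assumed equal to that of the shUCP2 pair. The edgeR calls rest on variance shared across genes. Fewer calls were made by other fits: edgeR without its abundance trend and limma on log2 FPKM called 0 globin genes, and DESeq2 called 3 (HBZ, HBG1 and HBG2). The cause of this difference was not tested. In bulk RNA, fewer globin-expressing cells and less globin RNA per cell cannot be told apart.

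**Figure D2:**
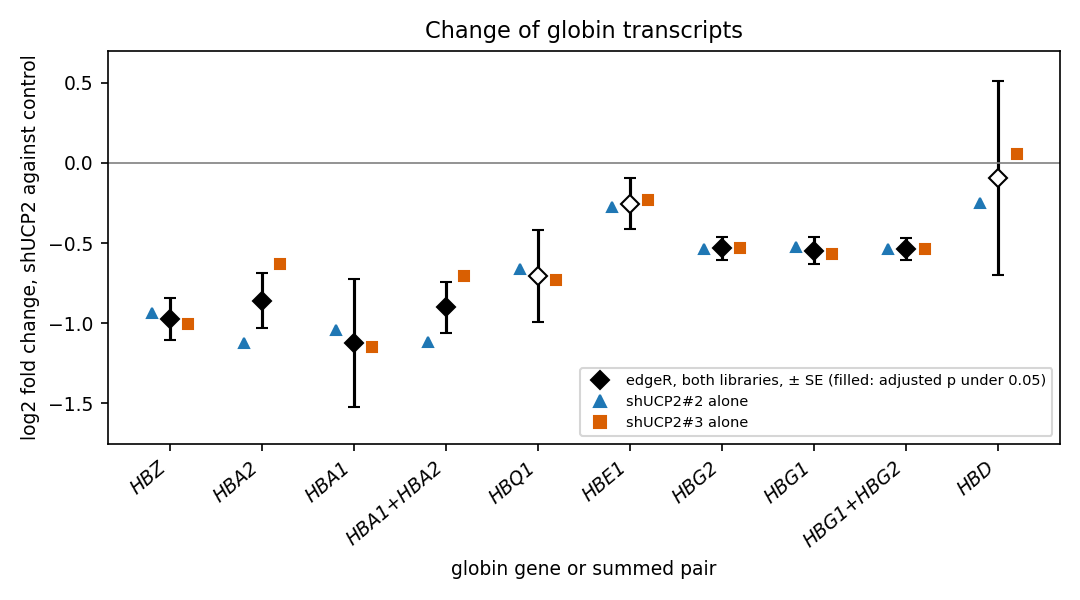
Log2 fold change of each tested globin gene and summed pair, shUCP2 against control. Diamonds show the edgeR estimate from both libraries with its SE (filled where the adjusted p was under 0.05), and triangles and squares show each hairpin alone. HBZ and the summed alpha pair lie between −0.71 and −1.12 for every hairpin, and the summed gamma pair at −0.54 for both.

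HBZ encodes zeta globin, the embryonic alpha-type chain, and lies at chr16:142728-154503 on the plus strand (ENSG00000130656). It had 1409 counts in control, 656 in shUCP2#2 and 674 in shUCP2#3. Both hairpins were thus close to each other and well below control. HBZ fell to 0.509 of control (95% interval 0.425 to 0.610, log2 fold change −0.97, SE 0.13, edgeR adjusted p = 4.89e-11), from 76.7 CPM to 39.1 ± 1.28 (SD, n = 2). The values were −0.94 for shUCP2#2 alone and −1.005 for shUCP2#3 alone. Only 3.08% of all tested genes had a lower log2 fold change.

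HBA1 and HBA2 both encode the alpha chain of fetal and adult hemoglobin. Their summed counts were 750 in control, 308 in shUCP2#2 and 441 in shUCP2#3. The sum fell to 0.536 of control (95% interval 0.432 to 0.666, log2 fold change −0.90, SE 0.16, edgeR adjusted p = 1.26e-06). Both shUCP2 libraries were below control, but they differed from each other more than for HBZ, at −1.12 for shUCP2#2 and −0.71 for shUCP2#3 on the log2 scale.

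HBA2 (chr16:172876-173710, ENSG00000188536) supplied most of that sum, with 630, 257 and 390 counts in control, shUCP2#2 and shUCP2#3. Its log2 fold change was −0.86 (SE 0.17, edgeR adjusted p = 2.49e-05), with −1.13 for shUCP2#2 alone and −0.63 for shUCP2#3 alone. HBA1 (chr16:176680-177522, ENSG00000206172) had 120, 51 and 51 counts with a log2 fold change at −1.12 (SE 0.40, edgeR adjusted p = 0.0422), and the hairpins alone gave −1.04 and −1.15. The HBA1 call was lost when all genes with at least 1 count were tested (edgeR adjusted p = 0.0967). HBA2 had 5.25 counts for each HBA1 count in control (95% interval 4.31 to 6.44), 5.04 under shUCP2#2 (3.72 to 6.95) and 7.65 under shUCP2#3 (5.70 to 10.5). These intervals overlapped in all 3 libraries.

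HBQ1 encodes theta globin, an alpha-type chain whose protein has no established role in hemoglobin, and lies at chr16:180459-181179 (ENSG00000086506). It had 212 counts in control, 119 in shUCP2#2 and 122 in shUCP2#3. Both hairpins were below control, but the difference was not called (log2 fold change −0.70, SE 0.29, edgeR adjusted p = 0.0902, with −0.66 and −0.73 for the hairpins alone). HBM, the mu globin gene of this cluster (chr16:153892-166764, ENSG00000206177), had 1, 0 and 0 counts. A count of 0 allows up to 0.182 CPM of the raw library total in shUCP2#2 and 0.171 in shUCP2#3, so no difference in HBM was detectable at this depth.

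HBG1 and HBG2 encode the gamma chains of fetal hemoglobin. Their summed counts were 30224 in control, 18620 in shUCP2#2 and 20052 in shUCP2#3. Scaled to library size this was 1646 CPM in control and 1135 and 1136 CPM in the shUCP2 libraries. The hairpins were thus nearly equal and both below control. The sum fell to 0.690 of control (95% interval 0.630 to 0.755, log2 fold change −0.54, SE 0.07, edgeR adjusted p = 1.71e-13), and the log2 fold change was −0.54 for each hairpin alone.

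HBG2 (chr11:5253188-5505605, minus strand, ENSG00000196565) had 24738, 15211 and 16496 counts in control, shUCP2#2 and shUCP2#3. Its log2 fold change was −0.53 (SE 0.07, edgeR adjusted p = 3.69e-12), with −0.54 and −0.53 for the hairpins alone. HBG1 (chr11:5248269-5249857, minus strand, ENSG00000213934) had 5486, 3409 and 3556 counts with a log2 fold change at −0.55 (SE 0.09, edgeR adjusted p = 2.47e-08), and the hairpins alone gave −0.52 and −0.57. The gamma genes kept nearly the same proportion to each other. HBG2 had 4.51 counts for each HBG1 count in control (95% interval 4.38 to 4.64), 4.46 under shUCP2#2 (4.30 to 4.63) and 4.64 under shUCP2#3 (4.47 to 4.81). Per length the ratio depended on the gene model: it was 7.78 to 8.09 with the exonic sizes in the table, where HBG1 is 1467 bases long, and 5.66 to 5.89 with the RefSeq-matched transcripts, where it is 779. The RefSeq-matched lengths were an alternative chosen after the data were seen.

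HBE1 encodes epsilon globin, the embryonic beta-type chain (chr11:5268345-5505652, minus strand, ENSG00000213931). It had 625 counts in control, 461 in shUCP2#2 and 511 in shUCP2#3. Scaled to library size this was 34.0 CPM in control and 28.5 ± 0.595 CPM in shUCP2 (SD, n = 2), a fold of 0.838 that was not called (95% interval 0.676 to 1.04, log2 fold change −0.25, SE 0.16, edgeR adjusted p = 0.351). The hairpins alone gave −0.28 and −0.23. HBZ had 1.87 times the FPKM of HBE1 in control, 1.18 times in shUCP2#2 and 1.09 times in shUCP2#3. The same ratio by counts was 2.25 (95% interval 2.05 to 2.48), 1.42 (1.26 to 1.61) and 1.32 (1.17 to 1.48), so control lay above both hairpins beyond counting error. The difference between the changes of these embryonic genes was not tested over libraries.

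HBD encodes delta globin, the chain of the minor adult hemoglobin (chr11:5232678-5243657, minus strand, ENSG00000223609). Its counts were 43, 32 and 43 in control, shUCP2#2 and shUCP2#3, which overlapped between the groups. The log2 fold change was −0.09 (SE 0.61, edgeR adjusted p = 0.958), and its sign differed between the hairpins, at −0.25 and 0.05. The interval of the fold, 0.412 to 2.14, leaves room for a change in either direction.

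HBB encodes beta globin, the main adult beta-type chain and the gene altered in sickle cell disease and beta thalassemia (chr11:5225464-5229395, minus strand, ENSG00000244734). It had 8 counts in control, 0 in shUCP2#2 and 8 in shUCP2#3, so the groups overlapped and no test was made. At 0.33, 0 and 0.35 FPKM, HBB was listed far below HBG2 in each library.

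The makeup of each cluster was taken from the reads that were counted. How reads matching both copies of a near-identical pair were counted is not given in the sources used here. HBG1 and HBG2 together made up 98.0% of the summed beta-cluster FPKM in control, 97.6% in shUCP2#2 and 97.5% in shUCP2#3. HBE1 made up 1.92%, 2.29% and 2.35%, HBD 0.110%, 0.133% and 0.165%, and HBB 0.0179%, 0% and 0.0272%. The fetal genes thus held nearly all of the cluster in each library, and the adult genes under 1 in 100 of it.

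Within the alpha cluster the shares were more even. HBZ made up 48.1% of the FPKM in control, 48.6% in shUCP2#2 and 43.2% in shUCP2#3. HBA1 and HBA2 together made up 35.9%, 32.0% and 39.6%, and HBQ1 15.9%, 19.4% and 17.2%. For HBZ and for the alpha pair, control lay between the hairpins. The order of HBZ and the alpha pair was the same in all 3 libraries. The beta cluster summed to 13.4 times the FPKM of the alpha cluster in control, 17.99 times in shUCP2#2 and 16.8 times in shUCP2#3. Both shUCP2 libraries lay above control in this ratio, which was not tested.

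**Figure D3:**
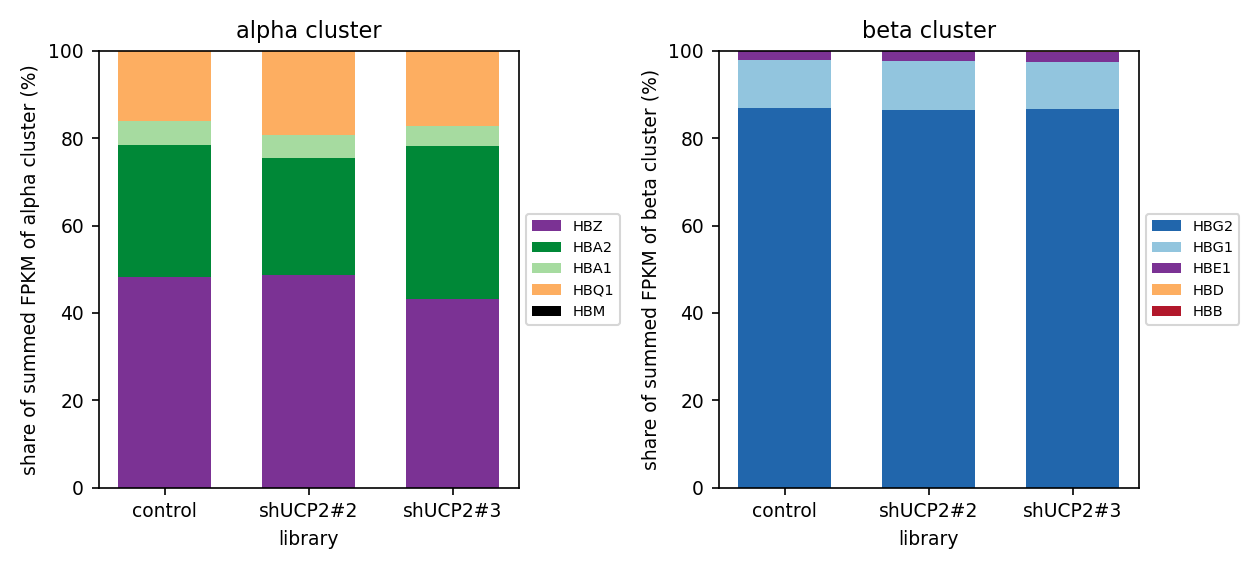
Share of each gene in the summed FPKM (%) of its cluster in the 3 libraries, with the alpha cluster at the left and the beta cluster at the right. HBG2 and HBG1 together fill 98.0%, 97.6% and 97.5% of the beta cluster in control, shUCP2#2 and shUCP2#3, and HBZ 43.2% to 48.6% of the alpha cluster.

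Comparison of levels between globin genes was limited by overlapping gene models, since the setting by which shared bases were counted is not given in the sources used here. Shares and the ratio between the clusters were limited as well, because reads that match both copies of a pair may have been left out. A sum of the pair does not restore such reads, and their number is not known. In the GENCODE 29 annotation of GRCh38, 781 of the 961 exonic bases of HBE1 also lay in ENSG00000239920, a readthrough model on the same strand. For HBG2, 433 of 869 exonic bases lay in ENSG00000284931, a model that spans both gamma genes, and 298 in ENSG00000239920. HBG1 shared 218 of 1659 with ENSG00000284931, HBZ 205 of 755 with HBM, and HBD 88 of 1270 with the pseudogene HBBP1. HBA1, HBA2, HBQ1 and HBB shared none. ENSG00000284931 itself had 744, 414 and 446 counts in control, shUCP2#2 and shUCP2#3, and fell by 0.68 on the log2 scale (SE 0.16, edgeR adjusted p = 0.000393).

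The genes around each cluster were compared with the globins over 100 kb on either side, pseudogenes within the clusters included. The clusters were bounded by RefSeq gene ranges, chr16:152644-181179 and chr11:5225464-5269945. The longer spans given above for HBZ, HBG2 and HBE1 run outside these bounds. Those of HBG2 and HBE1 reach over OR51B4 and into OR51B5, which were counted as neighbours. At the alpha cluster 20 neighbours were listed, 7 were tested, 2 were called lower and 0 higher. Over all genes tested, 6.11% were called lower and 6.25% higher. LUC7L, which encodes a splicing factor, had 411, 154 and 211 counts in control, shUCP2#2 and shUCP2#3 with a log2 fold change at −1.07 (SE 0.22, edgeR adjusted p = 6.10e-05). SNRNP25, a part of the minor spliceosome, had 704, 435 and 448 counts with a log2 fold change at −0.56 (SE 0.16, edgeR adjusted p = 0.00573). NPRL3, whose introns hold the distal enhancers of the alpha globin genes, had 1159, 882 and 975 counts and was not called (log2 fold change −0.21, SE 0.13, edgeR adjusted p = 0.348). The remaining tested neighbours, MPG, POLR3K, RHBDF1 and FAM234A, were not called, with log2 fold changes from −0.93 to 0.09.

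At the beta cluster 21 neighbours were listed, 9 were tested, 2 were called higher and 1 lower, the gamma-spanning model given above. The shares over all genes tested were 6.25% higher and 6.11% lower. Both neighbours called higher were olfactory receptor genes on the embryonic side of the cluster. OR51B5 had 8051, 8658 and 9412 counts in control, shUCP2#2 and shUCP2#3, or 110.5 to 135 FPKM, and rose by 0.27 on the log2 scale (SE 0.08, edgeR adjusted p = 0.0104). OR51B4 had 559, 772 and 934 counts and rose by 0.72 (SE 0.15, edgeR adjusted p = 7.63e-05). Their direction was thus opposite to that of the gamma genes, under each hairpin. HBE1, the globin gene nearest to them, was not called. OR51B5 shares 84 exonic bases with HBE1 and 37 with HBG2. The pseudogene HBBP1, between HBD and HBG1, had 133, 73 and 64 counts and was not called (log2 fold change −0.84, SE 0.36, edgeR adjusted p = 0.113). BGLT3, a noncoding RNA of the same interval, had 33, 4 and 7 counts and was not called (log2 fold change −2.46, SE 1.16, edgeR adjusted p = 0.171).

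**Figure D4:**
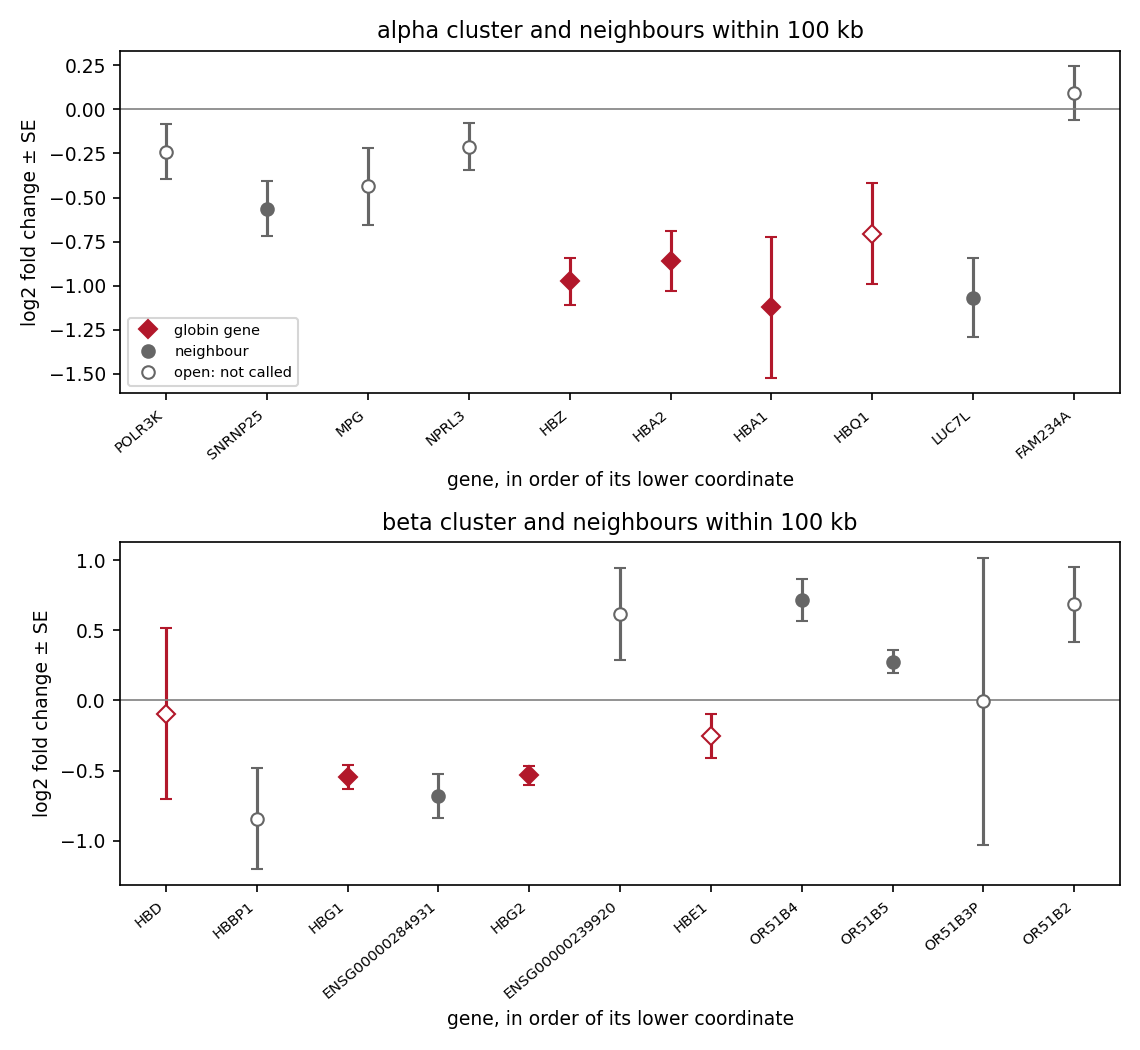
Log2 fold change with SE, shUCP2 against control, of tested globin genes (red diamonds) and of tested neighbours within 100 kb with a mean FPKM of at least 1 (grey circles), ordered by their lower coordinate; open symbols were not called. LUC7L and SNRNP25 lie below 0 beside the alpha cluster, and OR51B4 and OR51B5 lie above 0 beside the beta cluster.

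Known regulators of globin switching were measured next. All 46 listed were tested: 7 were higher, 10 lower and 29 not called, against 6.25% higher and 6.11% lower over all genes tested. The median log2 fold change of the list was 0.05, against 0.02 over all genes. The 4 called with the smallest adjusted p were PRMT5, KLF1, EHMT2 and NR2F2. PRMT5, an arginine methyltransferase linked to gamma silencing, had 2812, 1490 and 1928 counts in control, shUCP2#2 and shUCP2#3 (log2 fold change −0.61, SE 0.10, edgeR adjusted p = 9.73e-08). EHMT2, a histone H3 lysine methyltransferase, had 1037, 549 and 651 counts (log2 fold change −0.68, SE 0.14, edgeR adjusted p = 6.64e-05). Both lay below control under each hairpin. NR2F2, a nuclear receptor that binds embryonic and fetal globin promoters, had 887, 1198 and 1324 counts and was higher (log2 fold change 0.62, SE 0.13, edgeR adjusted p = 8.82e-05).

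Among the erythroid activators, KLF1, which drives adult beta globin, had 2747, 1873 and 1725 counts and fell by 0.50 on the log2 scale (SE 0.10, edgeR adjusted p = 3.08e-05). GATA1, the master erythroid transcription factor, had 3777, 2874 and 2843 counts and fell by 0.29 (SE 0.09, edgeR adjusted p = 0.0180). MYB, a factor of proliferating progenitors, had 7490, 8055 and 8233 counts and rose by 0.23 (SE 0.08, edgeR adjusted p = 0.0440).

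BCL11A, the main repressor of gamma globin in adult cells, had only 44, 17 and 13 counts, or 0.1 FPKM or less, and was not called (log2 fold change −1.43, SE 0.81, edgeR adjusted p = 0.283). ZBTB7A, another gamma repressor, had 596, 592 and 574 counts and was not called (log2 fold change 0.08, SE 0.16, edgeR adjusted p = 0.844). LIN28B and IGF2BP1, RNA-binding proteins of fetal cells, were at 19.7 to 23.4 and 20.9 to 23.3 FPKM. Neither was called, with log2 fold changes of 0.15 (SE 0.10) and 0.01 (SE 0.09).

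**Figure D5:**
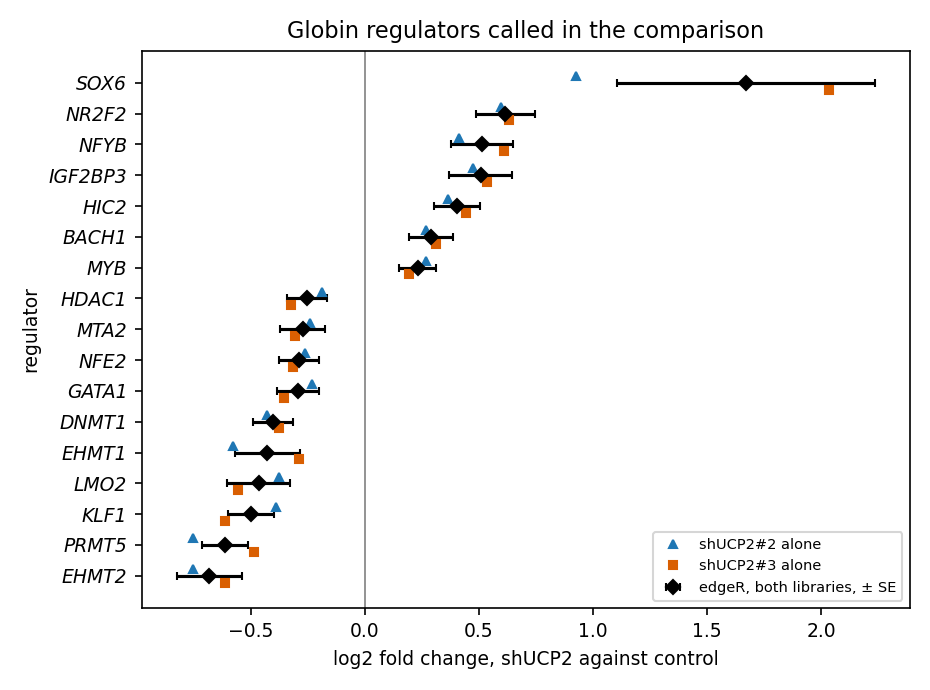
Log2 fold change, shUCP2 against control, of the 17 listed globin regulators that were called; the 29 not called are left out. Diamonds show the edgeR estimate from both libraries with its SE, and triangles and squares each hairpin alone. PRMT5 and EHMT2 lie below 0 and NR2F2 above 0 for both hairpins.

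Genes for heme synthesis, iron uptake and hemoglobin assembly were mostly not called. Of 24 tested, 3 were lower, 0 higher and 21 not called, against 6.11% lower and 6.25% higher over all genes tested. The median log2 fold change of the list was −0.08. TFRC, the transferrin receptor, had 35640, 24664 and 27148 counts and fell by 0.35 on the log2 scale (SE 0.06, edgeR adjusted p = 2.36e-06). STEAP3, a ferrireductase of the transferrin cycle, fell by 0.67 (SE 0.22, edgeR adjusted p = 0.0257), and UROS, an enzyme of heme synthesis, by 0.35 (SE 0.12, edgeR adjusted p = 0.0430). AHSP, the chaperone of free alpha globin, had 281, 172 and 236 counts and was not called (log2 fold change −0.36, SE 0.24, edgeR adjusted p = 0.399).

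The erythroid markers other than globins did not move as a block. Of 21 tested, 3 were higher (GYPE and ERMAP among them) and 3 lower (TFRC, KLF1 and GATA1), against 6.25% higher and 6.11% lower over all genes tested. The summed level of these markers was 4119 CPM in control, 3688 in shUCP2#2 and 3724 in shUCP2#3. TFRC alone held 1941, 1504 and 1538 CPM of this sum, and its fall accounted for that of the sum. The 9 epithelial and fibroblast markers summed to 600.2, 736 and 566 CPM. Most of this came from the 4 epithelial markers, which exceeded 10 CPM in all 3 libraries and were not called. The 5 fibroblast markers were called higher through shUCP2#2, where COL1A1 had 507 counts against 0 and 0. In shUCP2#3 each fibroblast marker had at most 3 counts. On the log2 scale HBZ was at −0.94 in shUCP2#2 and −1.005 in shUCP2#3, and the summed gamma pair at −0.54 in both. The summed alpha pair was lower in shUCP2#2, at −1.12, than in shUCP2#3, at −0.71. The part of the fibroblast signal in this gap was not tested.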

How the data were processed

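RNA sequencing libraries of transduced cells were analysed, 3 in all. The authors deposited 1 table that holds, for every gene and library, a read count without normalization and an FPKM. The deposited FPKM is that count over the exonic gene size and the library's total, rounded. The table also gives the exonic gene size and coordinates; the authors' own deposited columns hold no fold changes. Tools named in the submitters' processing notes were HTSeq 0.6.1, HISAT2 2.2.1, cutadapt 1.9.1, Cufflinks 2.2.1, SAMtools 0.1.19 and DESeq2, with the build GRCh38. Annotation release, strand setting and overlap mode: not given in the sources used here.

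Counts were fitted with edgeR 4.0.16 (quasi-likelihood test, filterByExpr, TMM, two-sided, R 4.3.3) over all genes. Benjamini-Hochberg adjustment was used, at a threshold of 0.05, with group as the single term. SEs were derived from the log2 fold change and its F statistic. Values per hairpin alone used a prior count of 2. Each near-identical pair was replaced by its summed row in a second fit. The script was tested on simulated data with 200 changed genes. CPM of genes uses TMM-scaled library sizes. A count of 0 was given a limit of 3 counts over the raw library total. Alternatives were other filters, other scalings, DESeq2 1.42.0, edgeR without its abundance trend, limma 3.58.1 on log2(FPKM + 1) and log2(FPKM + 0.1), and each hairpin left out. Exon overlaps and coding sequences came from GENCODE 29 (GRCh38), in which 5 of the 10 members have the start and end given in the table. Transcript lengths are of the GENCODE 29 transcript matched to RefSeq.

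The members and gene lists were chosen with earlier results of these data known. All members were named. Of each list, at most 4 called genes were named in order of adjusted p, together with BCL11A, ZBTB7A, KLF1, GATA1, LIN28B, IGF2BP1, MYB and AHSP, and the tested genes within 100 kb of a cluster. The values of 1 listed marker are not reported here.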

Additional observations from a re-analysis of the deposited data

How the results depend on the processing

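The log2 fold changes of all 8 tested globin genes were below 0 in every setting with a test, and 5 were called lower under the mean FPKM filter, DESeq2 size factors, no TMM factor and a library size without globin counts, and 4 with no filter on low counts. Over all genes, 946 of 10937 were called lower under the mean FPKM filter, 890 to 931 of 15232 under the other scalings, and 753 of 25001 with no filter. DESeq2 called 3 globin genes, with 296 genes lower and 327 higher of 25001, of which 17449 had no adjusted p. It gave HBA2 an adjusted p of 0.0621 and HBA1 none. edgeR without its abundance trend called 0 globin genes, 0 genes lower and 0 higher. Its unadjusted p was under 0.05 for 6 globin genes and for 1770 of all 15232 genes tested. The summed pairs then had log2 fold changes of −0.90 (HBA1 and HBA2) and −0.54 (HBG1 and HBG2), each with an adjusted p of 0.426. limma on log2(FPKM + 1) called 0 globin genes, 1 gene lower and 1 higher, with −0.89 (adjusted p = 0.128) for the alpha pair and −0.53 (adjusted p = 0.0924) for the gamma pair. limma on log2(FPKM + 0.1) called 0 globin genes, 0 genes lower and 1 higher, with −0.91 (adjusted p = 0.131) and −0.53 (adjusted p = 0.0923). In both limma fits 7 globin genes had an unadjusted p under 0.05, as did 2291 and 2306 of all 10937 genes tested. The cause of these lost calls was not tested.

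Leaving out 1 hairpin left 1 library against 1, a value with no test: HBD then ran from −0.25 to 0.0541 (without shUCP2#2, where it turned sign), the alpha pair from −1.12 to −0.71, and the gamma pair stayed at −0.54. Mean shUCP2 shares moved with the measure. HBZ took 45.9% of its cluster by FPKM, 57.5% by read counts and 50.4% by RefSeq-matched transcript length. HBG1 and HBG2 took 97.5%, 97.3% and 97.3%, and HBE1 2.32%, 2.45% and 2.53%. Adding the gamma-spanning model to the gamma sum, chosen after the data were seen, changed no call. No paired analysis was possible because there was a single control library and no label pairs it with a shUCP2 library. HBM, HBB and HBD had at most 43 counts a library, so depth limits what can be said of them.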

Other observations

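Globins outside both clusters were at or near 0. MB, the myoglobin of muscle, had 5, 3 and 2 counts in control, shUCP2#2 and shUCP2#3, and CYGB, the cytoglobin of many tissues, had 5, 3 and 7. NGB, the globin of neurons, and ADGB, a testis globin, had 0 in each library. HBAP1, an alpha pseudogene, had 0 counts in each library, and HBZP1, a pseudogene of zeta globin, had 0, 8 and 0, with counts only in shUCP2#2. None of these genes passed the filter on low counts.

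The other olfactory receptor genes tested around the beta cluster were not called. OR51B2 had 151, 192 and 260 counts (log2 fold change 0.69, SE 0.27, edgeR adjusted p = 0.0732), and the pseudogene OR51B3P had 19, 18 and 17. OR52A5, on the HBB side of the cluster, had 3, 0 and 17 counts, and was not called (log2 fold change 1.53, SE 1.92, edgeR adjusted p = 0.725). Its sign differed between the hairpins, at −1.28 and 1.96. ENSG00000239920, the readthrough model over HBE1 and HBG2, had 94, 131 and 136 counts (log2 fold change 0.62, SE 0.33, edgeR adjusted p = 0.250). OR51B2 and this model lay above control under each hairpin, while HBG2 lay below it.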
